A study of Mus musculus with 6 samples.

Results

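The genes described here are SRF and 9 genes of the contractile and actin cytoskeletal apparatus that smooth muscle uses, ACTA2, ACTG2, TAGLN, CNN1, MYL9, TPM1, TPM2, VCL and CALD1. They were chosen by name, as all probes that the array assigns to these 10 symbols, and make up 22 of 45281 probes and 10 of 30854 gene names. RNA came from PA6 cells, a murine stromal line used as feeder layer for differentiating ES cells, kept without ES cells for 3 h in serum-free medium, and was measured on Illumina BeadChips of the type MouseWG-6 v2.0. The groups were cells in absence of growth factors (-GFs, FGF2 and BMP4 both at 0 ng/ml), cells in presence of 20 ng/ml FGF2, and cells in presence of BMP4, at 10 ng/ml by the sample labels, while the methods on the co-cultures give another BMP4 dose. Each group had 2 replicates with 1 array each, and the treatment protocol describes a biological replicate as an untreated, an FGF2 and a BMP4 well. The p-values thus measure only spread between these wells of a single cell line, pooled in part over all genes tested. In such bulk RNA, fewer cells with a transcript and less transcript per cell cannot be told apart.

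SRF, serum response factor, is a transcription factor that binds CArG boxes in promoters and works with partner proteins of separate families. Ternary complex factors such as ELK1, ELK3 and ELK4 respond to ERK signalling and drive immediate early genes, and the myocardin-related factors MKL1 and MKL2 respond to the state of the actin cytoskeleton and drive actin, contractile and adhesion genes. SRF itself is among its own targets. FGF2 signals through receptor tyrosine kinases that activate ERK, and BMP4 through SMAD proteins, and many stromal cells express part of the smooth muscle contractile programme without being smooth muscle.

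Promoter sequences are shown for the 4 members whose window held a CArG box, the SRF binding motif, or a CArG-like element with 5 of the 6 core letters A or T, since they are the sequences through which SRF could act on these genes. RefSeq promoter windows on GRCm38.p6 were at hand for 8 of the 10 members, ACTG2 and TAGLN being the exceptions, and each ran from 250 bases before to 50 after the start site. The 250 bases before the start are printed 5′ to 3′ on the strand of the gene, with the elements in capitals, for SRF at chr17:46556163-46556412 (minus strand), VCL at chr14:20929148-20929397 (plus strand), MYL9 at chr2:156775214-156775463 (plus strand) and ACTA2 at chr19:34255374-34255623 (minus strand).
SRF: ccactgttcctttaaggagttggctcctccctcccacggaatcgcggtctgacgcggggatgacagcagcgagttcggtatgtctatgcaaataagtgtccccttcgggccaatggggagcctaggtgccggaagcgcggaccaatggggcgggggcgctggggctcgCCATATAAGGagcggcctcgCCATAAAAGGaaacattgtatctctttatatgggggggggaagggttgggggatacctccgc
VCL: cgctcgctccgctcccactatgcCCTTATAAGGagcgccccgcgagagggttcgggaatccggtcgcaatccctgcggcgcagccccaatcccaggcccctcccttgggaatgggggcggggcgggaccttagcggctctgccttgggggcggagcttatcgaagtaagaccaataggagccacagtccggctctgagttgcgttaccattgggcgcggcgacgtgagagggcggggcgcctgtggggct
MYL9: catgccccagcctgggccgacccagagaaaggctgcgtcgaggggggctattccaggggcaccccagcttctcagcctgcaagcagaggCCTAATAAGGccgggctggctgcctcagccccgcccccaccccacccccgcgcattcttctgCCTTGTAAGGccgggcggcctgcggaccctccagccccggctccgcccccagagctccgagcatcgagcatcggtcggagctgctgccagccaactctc
ACTA2: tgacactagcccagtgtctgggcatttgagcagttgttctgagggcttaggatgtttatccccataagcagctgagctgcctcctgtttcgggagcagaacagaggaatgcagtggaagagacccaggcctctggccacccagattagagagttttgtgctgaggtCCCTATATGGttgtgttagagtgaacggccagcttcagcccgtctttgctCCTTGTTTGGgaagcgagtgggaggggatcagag
SRF carried a pair of CArG boxes, from -82 to -73 and from -62 to -53 relative to its start. VCL carried a CArG box from -227 to -218, the farthest from the start among these. MYL9 had a CArG box from -161 to -152 and a CArG-like element from -99 to -90, and ACTA2 had CArG-like elements from -84 to -75 and from -34 to -25. A CArG box thus stood in 3 of 8 member genes (37.5%), against 1.81% of the 27025 genes in the same table. A box or a CArG-like element stood in 4 of 8 (50%), against 11.3%. The members were named as SRF and genes of a programme that SRF drives. A higher share could thus come from the choice of names, and these shares are a description only. The motif is its own reverse complement in pattern, so 1 scan covers both strands, and no element overlapped another. CNN1, TPM1, TPM2 and both windows of CALD1 held neither, which speaks only of these windows.

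**Figure D1:**
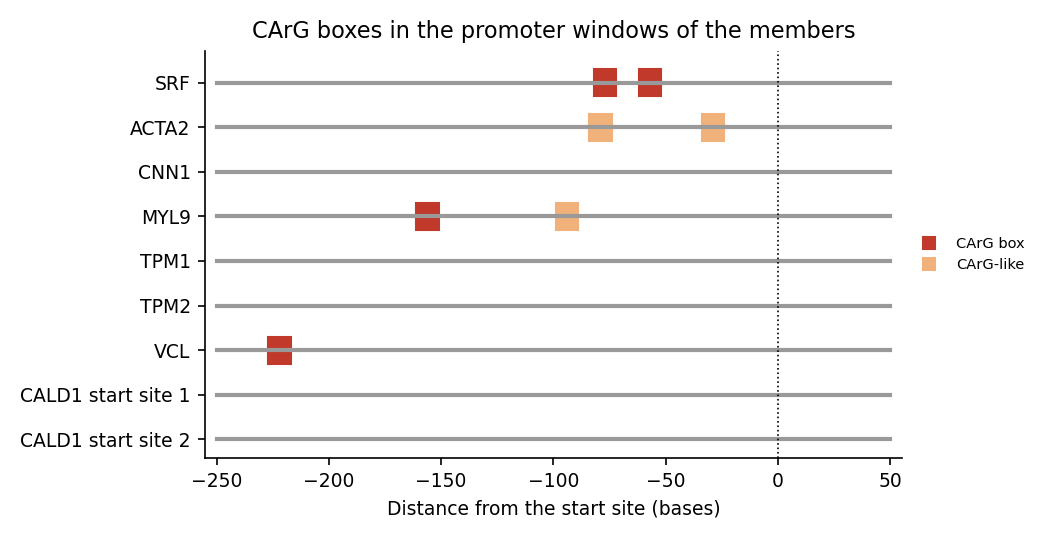
CArG boxes (red) and CArG-like elements (orange) in the promoter windows of the 8 members with a RefSeq window, by distance in bases from the start site (dotted line). SRF and ACTA2 hold 2 elements each, close to the start, those of MYL9 and VCL lie farther out, and CALD1 has 2 windows.

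The intensities were normalized by a cubic spline and converted to log2, and a probe counted as detected at a detection p-value under 0.05. Over the 6 arrays, 15509 to 16459 probes were detected and the median raw intensity was 153.4 to 168.1. Of the 22 member probes, 16 were detected on all 6 arrays and 6 on none. The 6 undetected ones were the only probe of CNN1, which encodes the actin-binding protein calponin 1, 2 of 3 probes of TPM2, and 1 probe each of SRF, ACTA2 and TAGLN. CNN1 had raw intensities of 127 to 186.6, near the array medians, and was not tested. The other 9 members were each represented by their probe with the largest mean among the 11872 genes fitted together with limma. A gene was called where it passed both criteria of the study's methods, a log2 fold change beyond 1 in either direction and an adjusted p below 0.1 (Benjamini-Hochberg, over all genes). The count that passed the second criterion whatever the fold is given beside it. With 2 arrays per group, an exact two-sided permutation test of a single gene cannot go below p = 0.333, and precision is limited by this number of arrays.

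Markers of stromal cells were present in the PA6 cells. All 8 stromal markers (PDGFRA, PDGFRB, CXCL12, COL1A1, COL1A2, VIM, THY1 and LUM) were detected on all 6 arrays. Of the markers that define smooth muscle cells, the myosin heavy chain gene MYH11 and CNN1 were detected on no array and the coactivator gene MYOCD at most on 1, while SMTN, LMOD1 and ACTG2 were detected on all and DES on 5. Of 9 skeletal and cardiac muscle markers, 1 (TNNT2) had no probe under its name, and none of the others passed the detection filter. MYOG was detected on 2 arrays at most, and ACTA1 and ACTN2 on 1. PECAM1, CDH5, PTPRC, EMR1, CD68, NANOG and SOX2, markers of endothelial, haematopoietic and ES cells, were detected on no array. Of the other members of these lists, TEK (endothelial) and POU5F1 (ES) were detected on all 6 arrays, CSF1R (haematopoietic) on 5 and KDR (endothelial) on 4. Their log2 levels were low, at 7.66 to 8.47, 7.66 to 7.97, 7.52 to 7.99 and 7.29 to 8.06 in that order. The undetected CNN1 probe was at 7.04 to 7.49. Of 6 adipocyte markers, PPARG was detected on all 6 arrays, LPL on 5, CEBPA and CFD on 4, ADIPOQ on 3 and FABP4 on none.

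SRF was higher in presence of FGF2 than in both other groups, and was at about the same level in -GFs medium and with BMP4. Its raw intensities were 850.6 and 1204.5 in -GFs medium, 1936.3 and 1820.7 with FGF2, and 708.1 and 1256.6 with BMP4. On the normalized log2 scale these were 9.52 and 10.31 in -GFs medium, 10.92 and 10.89 with FGF2, and 9.57 and 10.26 with BMP4. Both FGF2 arrays lay above all 4 other arrays, and the -GFs and BMP4 arrays overlapped. The means were 10.91 ± 0.018 (SD, n = 2) with FGF2, 9.92 ± 0.56 (SD, n = 2) in -GFs medium and 9.92 ± 0.49 (SD, n = 2) with BMP4. The log2 fold change for FGF2 against -GFs was 0.99 (95% confidence interval 0.24 to 1.74), just under the threshold on the fold, and the limma adjusted p was 0.121, so SRF was not called. A larger log2 fold change was fitted for 2.61% of all genes. The replicate wells differed in this response, with log2 differences of 1.40 in replicate 1 and 0.58 in replicate 2. SRF was nearly as high in both FGF2 wells and started from a lower level in replicate 1. With the replicate number as a block, which takes out only a replicate difference that the groups share, the fold change was the same by construction. Its interval was then 0.63 to 1.35 and the limma adjusted p was 0.000322. Both replicate differences lay outside this interval, whose width rests in part on the spread of all genes.

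VCL, which encodes the focal adhesion protein vinculin, was the other member with a difference near that of SRF. Its log2 intensities were 12.95 and 11.97 in -GFs medium, 13.21 and 13.36 with FGF2, and 12.62 and 12.35 with BMP4. Here too both FGF2 arrays lay above the 4 others. The means were 13.29 ± 0.11 (SD, n = 2) with FGF2, 12.46 ± 0.69 (SD, n = 2) in -GFs medium and 12.48 ± 0.19 (SD, n = 2) with BMP4. The log2 fold change for FGF2 against -GFs was 0.83 (95% confidence interval 0.09 to 1.57; limma adjusted p = 0.168, or 0.00321 with the replicate block). The -GFs wells were far apart, and the differences were 0.27 in replicate 1 and 1.40 in replicate 2, so that the larger response of VCL came from the replicate with the smaller response of SRF. Both differences lay outside the interval with the block, 0.43 to 1.24.

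No member was called for FGF2 against -GFs, at a background of 3.53% of all genes called in either direction. By adjusted p alone none of the 9 passed either, against 6.02% of all genes higher and 5.76% lower. An unadjusted limma p under 0.05 was found for 2 members, SRF and VCL. They ranked 1696 and 2279 by p among the 11872 genes, so all genes ranked ahead of VCL were under 0.05 too. The share of all genes under 0.05 was not computed, so no excess of members is read from this count. With the replicate block 3 members passed by adjusted p as higher, SRF, VCL and TAGLN, and none as lower. The shares of all genes were then 18.1% higher and 19.6% lower. Members with higher and lower means numbered 6 and 3. Their median log2 fold change was 0.22, beside -0.021 over all genes tested. The size of the typical difference was near that of the array as a whole, with a median absolute log2 fold change of 0.22 over the members and 0.24 over all genes. Groups did not overlap for 4 members (SRF, VCL, TAGLN and CALD1), beside 53.7% of all genes, and the sign was the same in both replicates for 7 of 9, beside 73.8% of all genes.

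**Figure D2:**
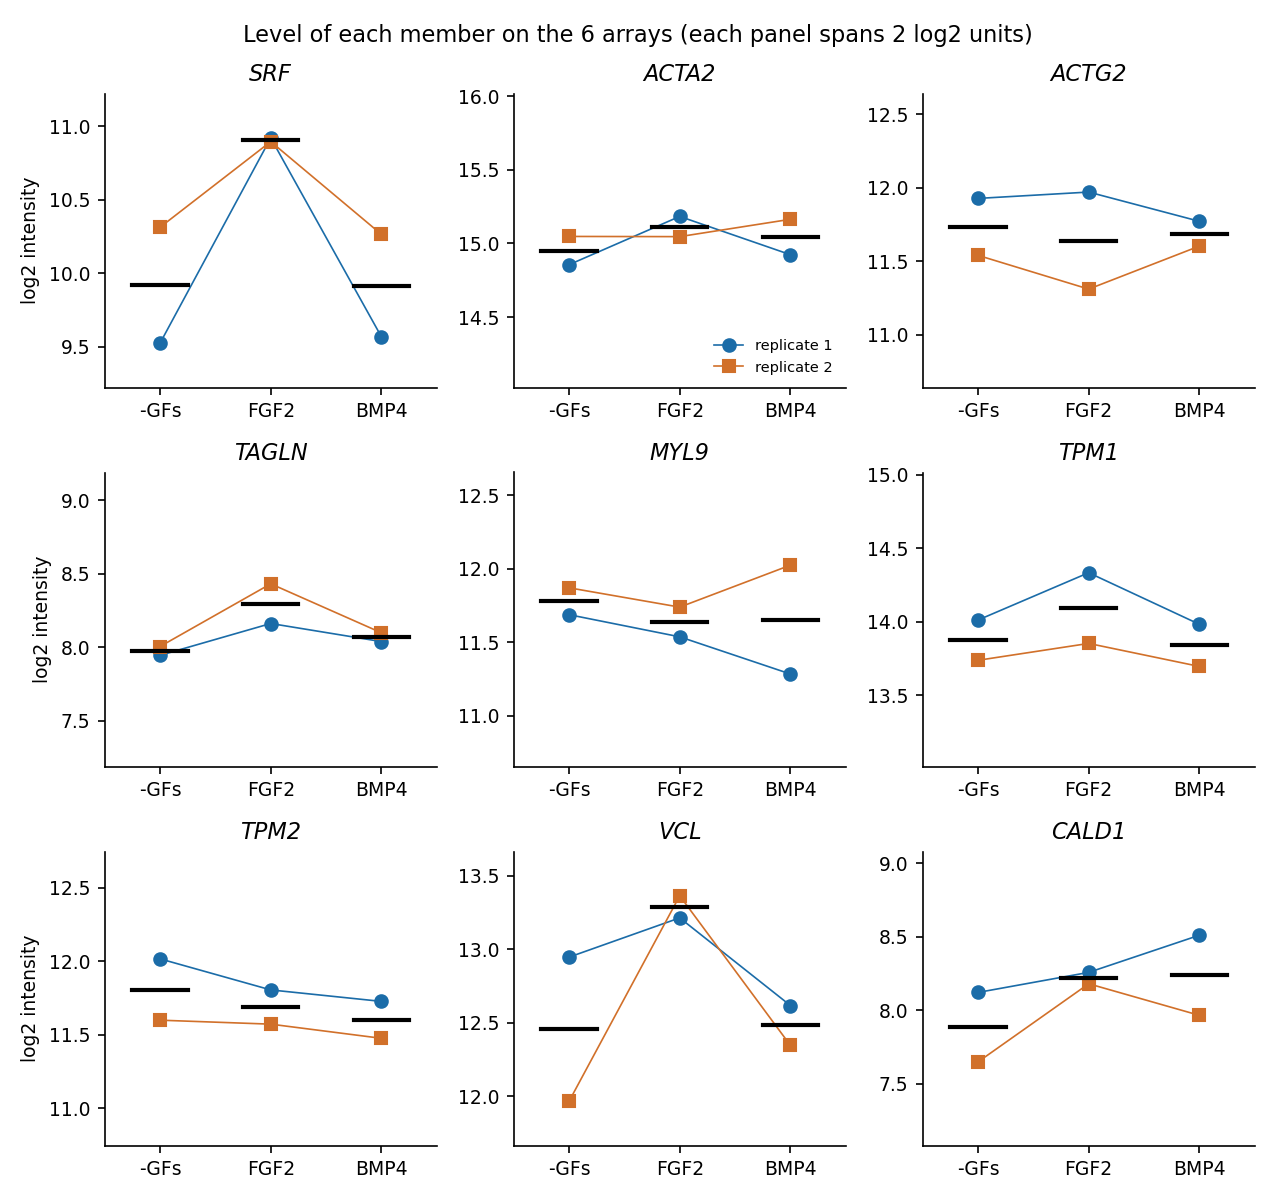
Normalized log2 intensity of the 9 members tested on each of the 6 arrays, by group, with replicate 1 (circles) and replicate 2 (squares) joined by lines and the group mean as a bar. Every panel spans 2 log2 units but has its own origin, since levels of different probes cannot be compared. In SRF, VCL and TAGLN both FGF2 arrays lie above the 4 others.

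The actin genes themselves stayed close to their level in -GFs medium. ACTA2, which encodes smooth muscle alpha actin, had log2 intensities of 14.86 and 15.05 in -GFs medium, 15.18 and 15.05 with FGF2, and 14.92 and 15.16 with BMP4, with overlapping groups. The log2 fold change for FGF2 was 0.16 (95% confidence interval -0.23 to 0.55; limma adjusted p = 0.609). ACTG2, which encodes smooth muscle gamma actin, had 11.93 and 11.54 in -GFs medium, 11.97 and 11.31 with FGF2, and 11.77 and 11.60 with BMP4, a log2 fold change for FGF2 of -0.09 (-0.69 to 0.51; limma adjusted p = 0.861). The intervals leave room for changes of up to 0.55 in ACTA2 and 0.69 in ACTG2 in size, so a smaller change was not detectable with these arrays. The coding sequences of these actins are closely alike and the probe sequences were not analysed here, so sharing of signal between them was not tested.

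The actin-binding members TAGLN and CALD1 had higher means with FGF2 and passed no threshold without the block. TAGLN, which encodes transgelin, had log2 intensities of 7.95 and 8.01 in -GFs medium, 8.16 and 8.43 with FGF2, and 8.04 and 8.10 with BMP4. All 3 groups lay apart, although the FGF2 wells were also the farthest from each other. Its log2 fold change for FGF2 was 0.32 (95% confidence interval -0.05 to 0.69; limma adjusted p = 0.273, or 0.0921 with the replicate block). The only detected TAGLN probe was weak, with raw intensities of 244.3 to 327.9 beside array medians of 153.4 to 168.1. With neqc, another normalization, the TAGLN value for FGF2 was 0.60. CALD1, which encodes the actin filament stabilizer caldesmon, had 8.12 and 7.65 in -GFs medium, 8.26 and 8.18 with FGF2, and 8.51 and 7.96 with BMP4. Its probe was weak too, with raw intensities of 193.1 to 348.9, the lowest in -GFs replicate 2. Its log2 fold changes were alike for FGF2, 0.33 (-0.24 to 0.90; limma adjusted p = 0.455), and for BMP4, 0.35 (-0.22 to 0.92; limma adjusted p = 0.9995), and neither passed with the block. The value for FGF2 was 0.027 to 0.55 with an array left out and 0.71 with neqc, the lowest coming from another probe of the gene.

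The tropomyosin and myosin light chain genes did not pass in any comparison. TPM1, which encodes a tropomyosin that lies along actin filaments, had log2 intensities of 14.01 and 13.74 in -GFs medium, 14.33 and 13.85 with FGF2, and 13.98 and 13.70 with BMP4. TPM2, another tropomyosin gene, had 12.02 and 11.60, then 11.81 and 11.57, then 11.73 and 11.48, in the same order of groups. In both genes replicate 1 was above replicate 2 in every group, and no group stood apart from another. MYL9, which encodes the regulatory light chain of smooth muscle and nonmuscle myosin, had 11.69 and 11.87 in -GFs medium, 11.54 and 11.74 with FGF2, and 11.28 and 12.02 with BMP4. The log2 fold changes for FGF2 were 0.22 (95% confidence interval -0.30 to 0.73) for TPM1, -0.12 (-0.59 to 0.36) for TPM2 and -0.14 (-0.74 to 0.46) for MYL9, with limma adjusted p of 0.605, 0.768 and 0.784.

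Where a member had several detected probes, these did not always give the same value. The 4 detected probes of ACTA2 had log2 fold changes for FGF2 against -GFs of 0.16, 0.14, 0.37 and 0.13, all above 0. For BMP4 against -GFs they were 0.09, -0.31, -0.14 and -0.19, so that the probe standing for the gene had the opposite sign of the other 3. The probe at 0.37 had a limma adjusted p of 0.375 over all 16111 probes, or 0.0763 with the replicate block. The 2 probes of MYL9 differed in sign for both factors, with -0.14 and 0.15 for FGF2 and -0.12 and 0.12 for BMP4. Those of TPM1 were alike for FGF2, at 0.22 and 0.29. Of the 3 probes of CALD1, the one standing for the gene was at 0.33 for FGF2 and 0.35 for BMP4, and the other 2 were at -0.050 and 0.027 for FGF2 and at 0.051 and 0.045 for BMP4. The differences given for CALD1 thus rest on 1 of its 3 probes, and no probe of CALD1 passed by adjusted p in the model without or with the block.

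**Figure D3:**
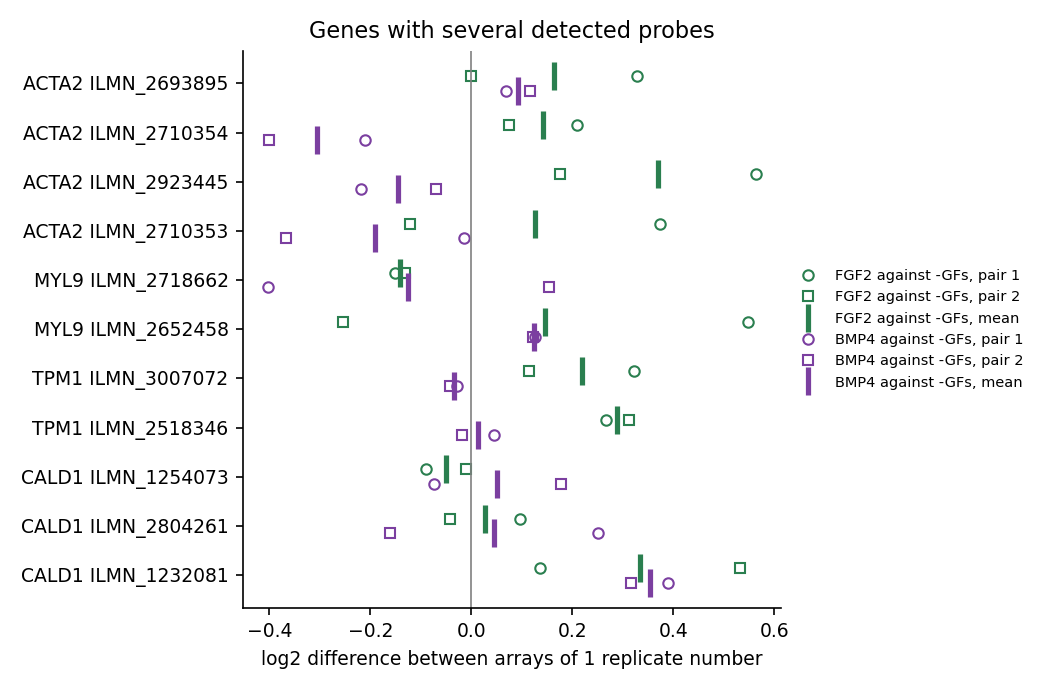
Log2 difference from -GFs medium for each detected probe of the members with several, with FGF2 in green and BMP4 in purple, replicate 1 as circles, replicate 2 as squares and their mean as a bar. The 4 ACTA2 probes are above 0 for FGF2 while 3 of them are below 0 for BMP4, and the MYL9 probes lie on both sides of 0.

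BMP4 left the members near their level in -GFs medium. None of the 9 was called or passed by adjusted p alone, against 0.00842% of all genes, and none passed with the replicate block, against 0.219%. At an unadjusted limma p under 0.05 there were 0 members, and 1 with the block. The share of all genes under that p was not computed in either model, so these counts have no background. Members with higher and lower means numbered 4 and 5, with a median log2 fold change of -0.0025 beside 0.0021 over all genes. The log2 fold change of SRF, which is that median, was -0.0025 (95% confidence interval -0.75 to 0.75) and that of VCL 0.026 (-0.71 to 0.76). In both genes the replicate wells moved to opposite sides, by 0.043 and -0.048 for SRF and by -0.33 and 0.38 for VCL. A change within these intervals was not detectable with these arrays. TPM2 had the lowest value, -0.21 (-0.68 to 0.27), and CALD1 the highest, 0.35. Groups did not overlap for 1 member (TAGLN), beside 24.0% of all genes, and the sign was the same in both replicates for 5 of 9, beside 55.5%.

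Compared directly, FGF2 and BMP4 differed most in the same pair of genes. It shares its FGF2 arrays with the comparison of FGF2 against -GFs, so the values of both stand side by side. SRF was higher with FGF2 by 0.99 on the log2 scale (95% confidence interval 0.24 to 1.74; limma adjusted p = 0.139, or 0.000354 with the replicate block), by 1.35 in replicate 1 and 0.63 in replicate 2. VCL was higher with FGF2 by 0.81 (0.07 to 1.55; limma adjusted p = 0.200, or 0.00461 with the block), by 0.60 and 1.02. No member was called, against 3.07% of all genes, and none passed by adjusted p alone, against 4.84% higher and 4.22% lower. With the block SRF and VCL were the 2 members that passed, as higher, against 16.3% of all genes higher and 17.8% lower. Of the ACTA2 probes, 2 that do not stand for the gene were higher with FGF2 than with BMP4, by 0.45 and 0.51, and passed with the block at limma adjusted p of 0.0251 and 0.0184, where 15.7% of all probes passed as higher. For the probe standing for ACTA2 the difference was 0.07 (-0.32 to 0.46).

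**Figure D4:**
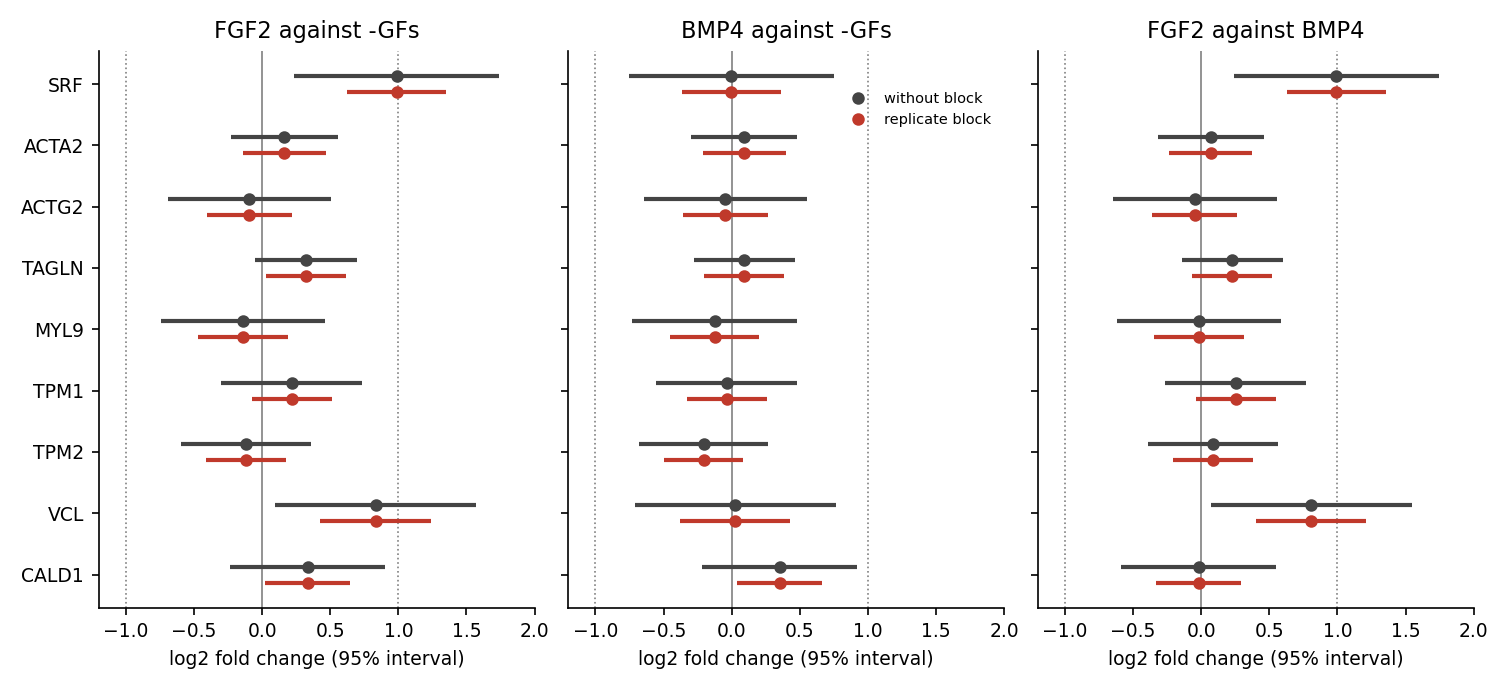
Log2 fold change of the 9 members tested in each comparison, with its 95% confidence interval from the model without a block (grey) and with the replicate block (red). Dotted lines mark a log2 fold change of 1 in either direction, and intervals without a block exclude 0 only for SRF and VCL in both comparisons with FGF2.

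Most members differed between the replicate numbers in the model with the block. Fitted across the 3 groups, replicate 2 was above replicate 1 on the log2 scale by 0.49 for SRF (limma adjusted p = 0.0189) and by 0.37 for MYL9 (limma adjusted p = 0.0424). Replicate 2 was lower for ACTG2 by a log2 difference of -0.41, for TPM1 of -0.35, for CALD1 of -0.36 and for TPM2 of -0.30, with limma adjusted p of 0.0228, 0.0361, 0.0391 and 0.0666. These 6 of 9 members passed, against a background of 28.8% of all genes. All 3 arrays of one replicate lay above all 3 of the other for ACTG2, MYL9, TPM1 and TPM2. The share of all genes that separated in this way was not computed, so no weight is put on it. The SRF difference came from the -GFs and BMP4 wells, at 0.79 and 0.70, and was -0.025 between the FGF2 wells. VCL, at -0.37, did not pass (limma adjusted p = 0.106), its wells differing by -0.98 in -GFs medium, 0.15 with FGF2 and -0.27 with BMP4. Markers of adipocytes also moved with the replicate number, though PPARG was at 11.16 and 11.14 in the -GFs wells. The stromal marker LUM did too, at log2 levels of 8.07 to 8.35 in replicate 1 and 9.41 to 9.62 in replicate 2. The summed intensity of the stromal markers overlapped between the replicate numbers, at 75870 to 97780 and 70080 to 86590. The summed intensity of the 4 adipocyte markers tested, of 6 listed, was 2736 to 3095 on the replicate 1 arrays and 3870 to 4960 on the replicate 2 arrays, with 1 of the 6 detected on no array, and its part in these differences was not tested. The summed intensity of the 8 stromal markers was 70080 to 75870 with FGF2, 86590 to 94990 in -GFs medium and 80640 to 97780 with BMP4, and its part in the FGF2 comparison was not tested either.

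Other genes of the SRF pathway were taken from lists of partners, targets and related genes, matched by name, and their counts are read beside the shares of all genes given above. Of 8 SRF partner genes, 3 were detected and tested. ELK3, the ERK-responsive ternary complex factor gene, had log2 intensities of 11.68 and 11.41 in -GFs medium, 12.02 and 11.87 with FGF2, and 11.85 and 11.62 with BMP4. Both FGF2 arrays were thus the highest, by a narrow margin over 1 BMP4 array, and the log2 fold change for FGF2 was 0.40 (limma adjusted p = 0.226, or 0.0362 with the block). ELK4, which the array names 2310011G17RIK, and FHL2, an SRF corepressor gene, had 0.14 and 0.06. None of the 3 passed without the block in any comparison.

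Immediate early SRF targets, which are transcribed within minutes to hours of stimulation, rose with FGF2. Of 12 listed genes 9 were tested, 7 were called as higher and none as lower, with a median log2 fold change of 2.08. The zinc finger factor genes EGR1, EGR2 and EGR3 rose by 4.19, 4.13 and 3.43, IER3, JUNB and FOS by 2.52, 2.08 and 1.61, and ZFP36, which encodes an RNA-decay factor, by 1.25. FOSB was at -0.48 (limma adjusted p = 0.175, or 0.0217 with the block). FOS was detected on 5 arrays and its wells with FGF2 were at 8.73 and 9.84, against 7.71 and 7.65 in -GFs medium.

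Some cytoskeletal and adhesion SRF targets also rose with FGF2. Of 22 listed genes 20 were tested, 15 with a higher and 5 with a lower mean for FGF2 and a median log2 fold change of 0.37. Of these, 3 were called as higher and 5 passed by adjusted p alone, all as higher. ITGA5, the fibronectin receptor alpha chain gene, had log2 intensities of 10.03 and 10.58 in -GFs medium, 12.64 and 13.05 with FGF2, and 9.97 and 10.12 with BMP4. It rose by 2.54 (limma adjusted p = 0.00548), and both FGF2 arrays stood far above the 4 others. CTGF, a matricellular protein gene, rose by 1.57 (limma adjusted p = 0.0622). CYR61, of the same protein family, was detected on no -GFs array and reached a level at least 2.13-fold higher in presence of FGF2 (limma adjusted p = 0.0179). A bound of this kind sets the FGF2 mean against the lowest level that counted as detected on each -GFs array. TAGLN2, a transgelin gene related to TAGLN, rose by 0.98 (limma adjusted p = 0.0160) and ZYX, which encodes zyxin, a focal adhesion protein like vinculin, by 0.78 (limma adjusted p = 0.0292). With the block 11 passed as higher and 3 as lower, the latter being FLNA at -0.41, TGFB1I1 at -0.40 and FHL1 at -0.47.

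Other smooth muscle genes moved in both directions. Of 14 listed genes 8 were tested, with a median log2 fold change for FGF2 of -0.03. LMOD1, which encodes a nucleator of actin filaments in smooth muscle, had log2 intensities of 9.53 and 9.24 in -GFs medium, 8.24 and 7.74 with FGF2, and 9.17 and 8.98 with BMP4. Both FGF2 arrays were the lowest, and LMOD1 fell by 1.39 (limma adjusted p = 0.0189), as the one gene of these lists that was called as lower. SMTN, the smoothelin gene, rose by 0.62 (limma adjusted p = 0.0532) and CSRP2, a LIM protein gene, by 0.57 (limma adjusted p = 0.0934). The summed intensity of the 4 smooth muscle markers tested, to which SMTN, LMOD1 and ACTG2 belong, was 13080 to 14530 with FGF2, 10650 to 11070 in -GFs medium and 10070 to 10540 with BMP4. SMTN alone of the 4 rose, LMOD1 fell, and ACTG2 and DES were at -0.093 and 0.024, so that the median of these markers was -0.034.

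With BMP4 no gene of these 4 lists was called or passed by adjusted p alone. With the block CTGF alone passed, at a log2 fold change of 1.11 (limma adjusted p = 0.0257). Set directly against BMP4, FGF2 gave higher calls for 4 cytoskeletal targets (ITGA5, TAGLN2, CYR61 and ZYX) and 6 immediate early targets, and a lower call for LMOD1 at -1.08 (limma adjusted p = 0.0416). ACTN1 and SMTN passed as higher by adjusted p alone, at 0.84 and 0.68. CTGF had 0.46 in that comparison (limma adjusted p = 0.555), with overlapping groups.

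**Figure D5:**
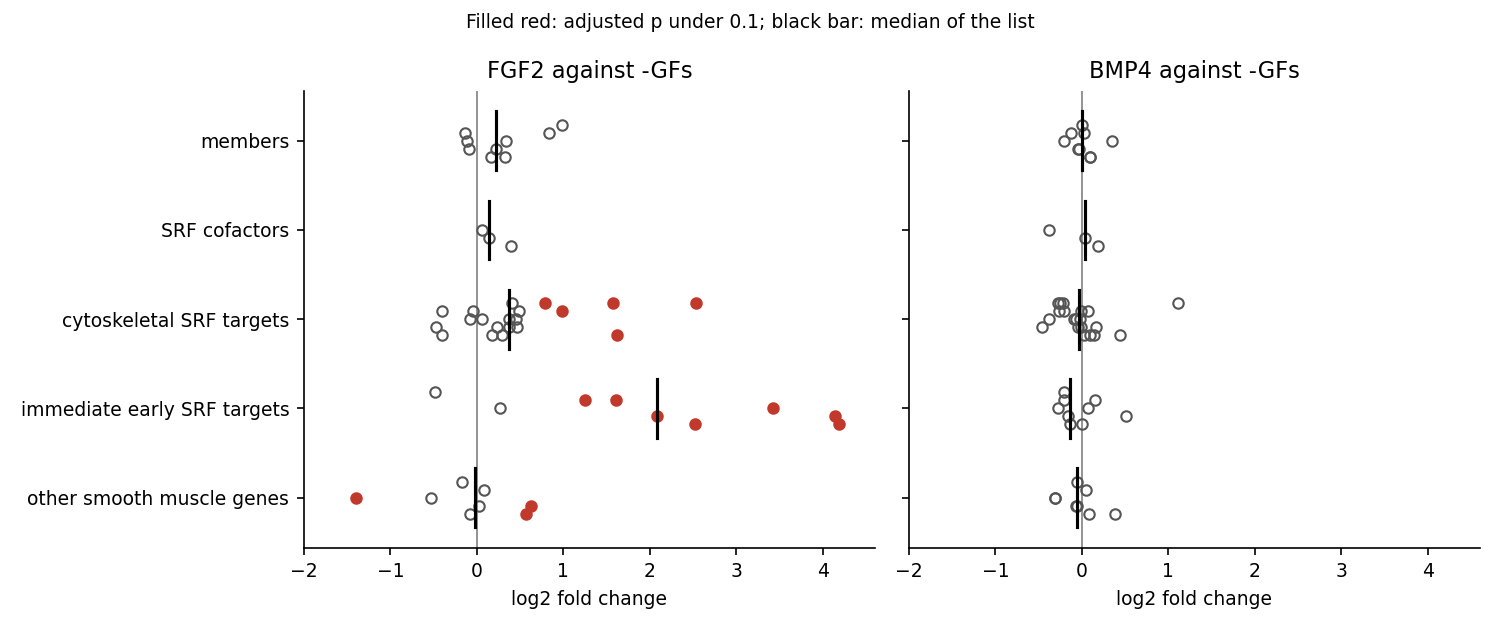
Log2 fold changes of the members and of the genes of 4 lists for FGF2 (left) and BMP4 (right) against -GFs medium, with 1 point per gene tested, the list median as a bar, and genes passing an adjusted p of 0.1 filled in red. The members lie between -0.14 and 0.99 for FGF2 with none filled, the immediate early targets reach 4.19, and no point is filled for BMP4.

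A CArG box in the same promoter windows was found for 5 of 19 cytoskeletal targets with a window (26.3%), 2 of 8 immediate early targets (25%), 1 of 7 partner genes (14.3%) and 1 of 12 other smooth muscle genes (8.33%), beside the 37.5% of the members. For a box or a CArG-like element the shares were 36.8%, 62.5%, 28.6% and 25% in the same order, beside 50% of the members. By that measure the immediate early targets stood above the members, at 5 against 4 genes of 8 each. They had 12 windows against 9, so more sequence was scanned for them. The targets were listed as SRF targets by name, so these shares are a description only. Among the members, SRF and VCL, with the largest differences for FGF2, each had a box, and MYL9, with a box and a value of -0.14, had one too.

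Over the 6 arrays, the genes whose log2 levels ran most like those of SRF among 11871 others were ZFP202, RNMTL1, EIF2B1, TTC39B and ZFP259, with Pearson's r of 0.998, 0.993, 0.993, 0.993 and 0.993. Their log2 fold changes for FGF2 were 0.36, 0.84, 0.56, 0.69 and 0.72. For ACTA2 they were NIPSNAP3A, ADAT1, EHD1, SNRPB and DGAT1, with r of 0.993, 0.985, 0.979, 0.976 and 0.976. These correlations over 6 arrays share the replicate differences as well as the factor and are a description only. Between the members themselves, r with SRF was 0.80 for ACTA2, 0.77 for TAGLN, 0.37 for VCL, 0.28 for MYL9 and 0.16 for TPM1. With SRF it was negative for CALD1 (-0.19), ACTG2 (-0.39) and TPM2 (-0.45).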

How the data were processed

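The authors deposited, for each probe and array, the raw mean intensity of its beads together with a p-value of detection. The methods name BeadStudio and GenomeStudio (version 2011.01 in the submitters' processing notes), cubic spline normalization and LIMMA. The table ended in 6 leftover lines and had 9 columns without heading, none of which was used. A spline written in R 4.3.3 mapped 452 quantiles of each array, linear at the ends, and log2 was then taken. A probe was kept if detected (p under 0.05) on each array of any group (16111 probes), and a gene was its probe with the largest mean (11872 genes, 3140 of them with several). limma 3.58.1 (lmFit, eBayes) was fitted to all 6 arrays without a block (3 residual degrees of freedom) and again with a block for the replicate (2). Its moderation draws the spread of each gene towards that of all genes, which gave 6.807 degrees of freedom in total without the block. Probe pairing to genes is that of the array, whose names are partly old. The procedure was tested on simulated data.

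The labels' treatment protocol gives each biological replicate a well of every group and the titles number the replicates, which was taken as pairing, and arrays of the same number deviated together from their group means, with correlations across genes of 0.603 (-GFs with FGF2), 0.741 (-GFs with BMP4) and 0.579 (FGF2 with BMP4). Named are all members, list genes called in any comparison, up to 5 per list that passed by adjusted p alone, and the 5 genes most like SRF and ACTA2. ELK4 and FHL2, FOSB, and FLNA, TGFB1I1 and FHL1 were named after their values were seen. Members and lists were chosen with earlier results of these data known. A further gene list is not reported here. CArG elements were searched in RefSeq promoter windows of GRCm38.p6. Alternatives were other normalizations, detection filters, probe choices, moderation, the methods' t-test and each array left out.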

Additional observations from a re-analysis of the deposited data

How the results depend on the processing

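Neither factor gave a member call in the model as reported, and counts differed from that as follows. For FGF2 against -GFs, 3 members passed by adjusted p alone with the replicate block (SRF, VCL and TAGLN) and 4 with neqc and the block (CALD1 besides), where 1, SRF, was also called at a log2 fold change of 1.11 (limma adjusted p = 0.0290). With an array left out, 0 to 1 members were called and 0 to 1 passed. VCL was called without -GFs replicate 1 (1.32, limma adjusted p = 0.0533) and SRF without -GFs replicate 2 (1.38, limma adjusted p = 0.0853), and SRF passed without BMP4 replicate 2 (limma adjusted p = 0.0993). For FGF2 against BMP4, 2 members (SRF and VCL) passed with the replicate block and with neqc and the block, with 1 called in the latter (SRF), and 0 to 2 passed with an array left out, SRF and VCL passing without either -GFs array. For BMP4 against -GFs no alternative gave a member that passed. SRF and VCL kept their direction in both comparisons with FGF2 under every alternative, from 0.59 to 1.38 for SRF and 0.34 to 1.32 for VCL against -GFs. Most alternatives could hardly have reversed it. The block, moderation, t-test and detection filters alone left these fold changes as they were, and each gene had 1 retained probe. Both FGF2 arrays also lay above the 4 others before any array was left out. The methods' t-test called no gene of the array for FGF2 against -GFs after adjustment, and the largest count over all genes was 1147, with neqc and the block, against 419 as reported.

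Values near 0 changed sign. ACTA2 was at -0.020 for FGF2 and -0.039 for BMP4 with median scaling, and at -0.14 for BMP4 as the mean of its probes. VCL was at -0.072 for BMP4 with median scaling, and MYL9 at 0.0026 for FGF2 and 0.0032 for FGF2 against BMP4 as the mean of its probes. Median scaling moved the median of all genes for FGF2 from -0.021 to -0.097. With an array left out, log2 fold changes for FGF2 ranged from -0.42 to 0.24 for ACTG2, -0.32 to 0.090 for TPM2 and -0.022 to 0.47 for TPM1. For BMP4 they ranged from -0.028 to 0.21 for ACTA2, -0.24 to 0.15 for ACTG2, -0.18 to 0.11 for TPM1, -0.41 to 0.0026 for TPM2, -0.40 to 0.39 for SRF, -0.46 to 0.51 for VCL, -0.24 to 0.57 for CALD1 and -0.50 to 0.25 for MYL9. For FGF2 against BMP4 they ranged from -0.39 to 0.35 for MYL9, -0.038 to 0.21 for TPM2, -0.38 to 0.28 for ACTG2, -0.30 to 0.27 for CALD1 and -0.047 to 0.19 for ACTA2. The CALD1 ranges mix probes, since another of its probes had the largest mean, and stood for the gene, without FGF2 replicate 2 or either BMP4 array. Why these counts and signs changed was not tested, apart from the fewer arrays or residual degrees of freedom that a setting has by construction. Without a detection filter CNN1 was at -0.15 for FGF2, from a probe detected on no array.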
